A study of Mus musculus with 4 samples.

Results

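Macrophage identity and residency genes were examined in endometriotic lesions of mice, which are patches of endometrium-like tissue growing elsewhere in the body, as a list of 34 gene symbols. The list joins the macrophage growth factors, genes shared by most macrophages, genes of macrophages resident in the peritoneum and other tissues, genes of lipid-laden macrophages, and lysosomal genes. Annotation to exactly 1 listed symbol chose 59 probe sets, which measured 33 of the 34 genes, and the probe set with the highest mean stood for each gene. No probe set was named Spp1 in the annotation used. The 33 genes were among 18193 genes with a named probe set.

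Lesion RNA was hybridised to Affymetrix 3′ expression arrays. Lesions of mice on a high-fat diet gave 2 of the 4 arrays, and lesions of mice on a casein diet, the control by the labels, gave the other 2. The labels give no strain, age or genotype of the mice, no composition of the diets, and no count of animals or lesions behind an array. P-values therefore measure only the spread between these samples, which may be technical.

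Macrophages depend on signalling through the receptor CSF1R, which binds the growth factors CSF1 and IL-34, and on the transcription factor PU.1, the product of Spi1. In the peritoneal cavity, the site where endometriotic lesions usually grow, large resident macrophages are maintained by the transcription factor GATA6 and many carry the phosphatidylserine receptor TIM4. Macrophages that take up much lipid, in fat tissue and in atherosclerotic plaque, are known for TREM2, GPNMB and CD9 and for a high content of lysosomal enzymes.

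The promoters of 3 lysosomal genes are shown first, since they share a motif. Of the 33 measured genes, 22 had an entry in the RefSeq promoter table (GRCm38.p6), and the 250 bases before each start site were searched on both strands. Transcription factors of the TFEB and MITF family are known to bind CACGTG, a palindrome, in promoters of lysosomal genes. It occurred in 3 of the 22 genes (13.6%), against 6.86% of 27025 genes in the table, and the 3 were Ctsd, Lamp1 and Lgmn, all of the lysosomal genes with an entry. Capitals mark CACGTG, each promoter is written 5′ to 3′ with its last base next to the start site, and for Lgmn the entry holding a match, of 2, is shown.
Ctsd, chr7:142387828-142388077, minus strand: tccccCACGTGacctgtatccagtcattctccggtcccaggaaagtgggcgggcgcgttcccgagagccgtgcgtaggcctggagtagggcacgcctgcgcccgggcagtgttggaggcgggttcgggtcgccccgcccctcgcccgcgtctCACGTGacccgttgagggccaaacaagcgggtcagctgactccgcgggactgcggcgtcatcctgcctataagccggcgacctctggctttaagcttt
Lamp1, chr8:13158911-13159160, plus strand: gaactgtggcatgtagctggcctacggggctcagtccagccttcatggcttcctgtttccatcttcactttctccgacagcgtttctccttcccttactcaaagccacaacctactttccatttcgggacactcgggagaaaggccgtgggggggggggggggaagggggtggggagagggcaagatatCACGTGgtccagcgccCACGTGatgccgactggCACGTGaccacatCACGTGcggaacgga
Lgmn, chr12:102439093-102439342, minus strand: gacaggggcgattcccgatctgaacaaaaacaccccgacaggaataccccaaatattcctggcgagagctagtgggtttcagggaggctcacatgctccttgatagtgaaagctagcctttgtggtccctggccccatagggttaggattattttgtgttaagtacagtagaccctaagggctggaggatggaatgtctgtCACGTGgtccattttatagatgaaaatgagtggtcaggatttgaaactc
Lamp1 held 4 copies, which began 61, 45, 28 and 15 bases before the start site. Ctsd held 2, which began 245 and 98 bases before it, and the copy in Lgmn began 49 bases before it. The longer form TCACGTGA, which contains CACGTG, occurred in Ctsd among the 22 genes and in 0.907% of all genes. These are matches of letters and not measured binding.

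PU.1 is known to bind purine-rich sites with the core GAGGAA. That core, on either strand, occurred in 8 of the 22 genes (36.4%), against 25.9% of all genes. The 8 were Cd68, Fcgr1, Aif1, Itgam and Laptm5 of the general macrophage genes, Vsig4 and Marco of the resident genes, and Trem2. The longer form GAGGAAGT, which contains the core, occurred in 0 of the 22 and in 2.79% of all genes. The AP-1 motif TGANTCA occurred in 5 of the 22 (22.7%), namely Cd68, Ms4a7, Itgax, Folr2 and Trem2, against 7.82% of all genes. The promoters of Itgam, with the core on each strand, and of Marco, the resident gene with the highest difference, are shown with the core in capitals.
Itgam, chr7:128062390-128062639, plus strand: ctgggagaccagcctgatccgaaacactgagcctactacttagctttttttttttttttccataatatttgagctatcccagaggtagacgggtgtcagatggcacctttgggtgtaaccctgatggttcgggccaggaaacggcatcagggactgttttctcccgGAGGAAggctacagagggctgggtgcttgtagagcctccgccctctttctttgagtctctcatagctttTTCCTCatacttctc
Marco, chr1:120505025-120505274, minus strand: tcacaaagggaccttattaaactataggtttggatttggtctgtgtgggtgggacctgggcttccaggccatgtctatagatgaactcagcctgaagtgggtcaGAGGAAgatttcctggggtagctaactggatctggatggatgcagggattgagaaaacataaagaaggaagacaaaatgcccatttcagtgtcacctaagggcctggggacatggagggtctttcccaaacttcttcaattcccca
In Itgam the matches began 84 and 15 bases before the start site, the second as TTCCTC on the printed strand. In Marco the match began 146 bases before it.

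The macrophage genes held no call between diets. Across the 12797 genes tested in limma, 0 (0.00%) had a Benjamini-Hochberg adjusted p under 0.05, and the smallest was 0.823. An unadjusted p under 0.05 was reached by 636 genes (4.97%), made up of 2.24% of tested genes with the higher mean on the high-fat diet and 2.73% with the lower. Of the macrophage genes, Ms4a7, Msr1, Mertk and Lgmn were among the former and Gata6 among the latter. The filter on dim genes, a mean intensity of 33.9, was passed by 30 of the 33 macrophage genes. The other 3, Timd4, Vsig4 and Il34, lay below it on every array and were not tested. An exact permutation test of a single gene could not go below p = 0.333 (two-sided) with this number of arrays, so none was run.

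Macrophage genes leaned toward higher values on the high-fat diet, with resident genes leaning the other way. The mean was higher on the high-fat diet for 24 of the 33 (72.7%, against 49.7% of all genes), and the median log2 difference, high-fat diet minus casein diet, was 0.20, against -0.0009 over all genes. Both high-fat diet arrays lay above both casein diet arrays for 10 genes (30.3%, against 17.0% of all genes), and below them for 5 (15.2%, against 18.7%). The 10 were Cd68, Msr1, Mertk, Mpeg1, Ms4a7, Fcer1g, Marco, Lgmn, Ctsb and Lamp1, and the 5 were Itgax, Timd4, Gata6, Vsig4 and Il34. In bulk tissue, fewer macrophages and less of a transcript per macrophage cannot be told apart.

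**Figure D1:**
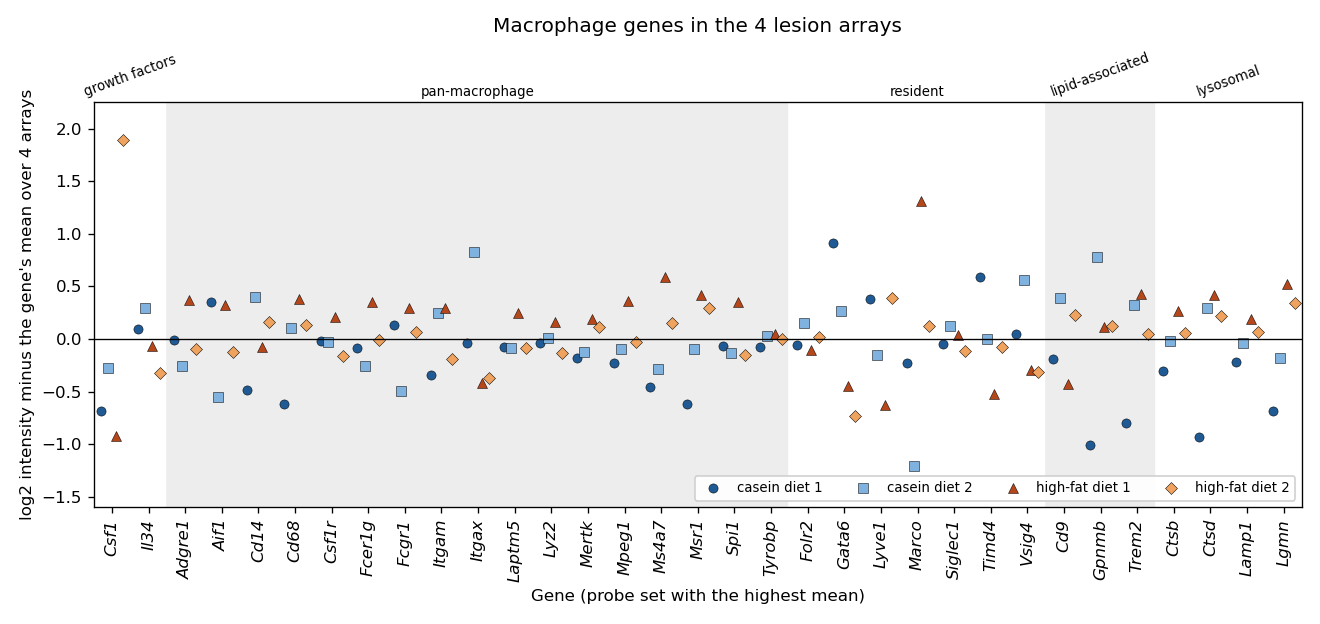
Each point is 1 of the 4 lesion arrays, plotted as the log2 intensity of a gene minus its mean over the arrays (vertical axis) for 33 macrophage genes grouped by class (horizontal axis). High-fat diet replicate 1 is the highest array for 20 of the 33 genes, and Csf1 stands far above the rest in high-fat diet replicate 2.

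The lean was carried unevenly by the arrays. High-fat diet replicate 1 was the highest array for 20 of the 33 genes (60.6%, against 24.1% of all genes), and high-fat diet replicate 2 for 2 (6.06%, against 23.6%). Casein diet replicate 1 was the lowest array for 14 (42.4%, against 32.2% of all genes). Set against casein diet replicate 1, high-fat diet replicate 1 had higher values for 23 of the 33 genes and replicate 2 for 20. Set against casein diet replicate 2, they had higher values for 21 and 15. Without any 1 array, between 20 and 26 of the 33 genes had the higher mean on the high-fat diet. The median over the 33 genes was 0.06 when casein diet replicate 1 was left out and 0.33 when high-fat diet replicate 2 was.

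High-fat diet replicate 1 and casein diet replicate 1 also stood apart in markers of other tissues. Skeletal muscle markers (7 of 7 listed genes measured) summed to an intensity of 22296 in high-fat diet replicate 1, where the other high-fat diet array had 723.1 and the casein diet arrays 583.2 and 850.8. Neutrophil markers (8 of 10 measured) summed to 5351 in the same array, where the other high-fat diet array had 1490.1 and the casein diet arrays 1220.3 and 1833. Most of the 5351 was S100a8, with 3477, where the other high-fat diet array had 687.7 and the casein diet arrays 464.5 and 849.4. Csf3r and Cxcr2 were also highest there, by less, with 420.6 and 138.1 against at most 276 and 84.0. Ngp, Elane and Mpo had means below the filter intensity. Gastric mucosa markers (7 of 7 measured) summed to 64938 and 9897 on the casein diet and to 335.9 and 350.8 on the high-fat diet, with Atp4a below the filter intensity. Endometrial stroma and epithelium markers (7 of 7 and 6 of 7 measured) all passed the filter. Epithelium markers summed to 17450 and 7512 in casein diet lesions and to 3599 and 6668 in high-fat diet lesions. All 6 had the lower mean on the high-fat diet. The largest part in casein diet lesions was Krt8, which other epithelia share, with 10009 and 2729, against 1079.6 and 1795.6 in high-fat diet lesions. Casein diet replicate 1, highest for Krt8, also had the most gastric signal, and the part of gastric tissue in these sums was not tested. Stroma markers summed to 10496 and 12361 and to 12930 and 12590, with 5 of 7 higher and a median difference of 0.61. The part of the other tissues in the macrophage values was not tested.

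**Figure D2:**
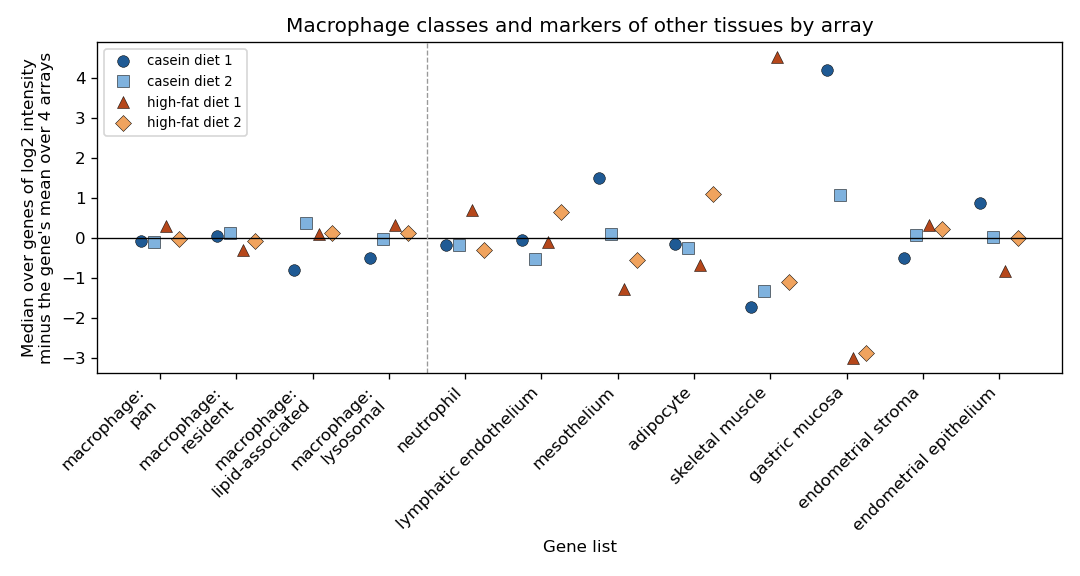
For each gene list (horizontal axis), points give, per array, the median over its genes of the log2 intensity minus the gene's mean over 4 arrays (vertical axis). The 4 macrophage lists left of the dashed line spread far less than skeletal muscle, at 4.52 in high-fat diet replicate 1, and gastric mucosa, at 4.21 in casein diet replicate 1.

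Among the growth factors, Csf1 was high in a single lesion array. Csf1, whose product drives survival and growth of macrophages, had intensities of 533.1 and 708.1 in casein diet lesions, against 454.1 and 3185 in high-fat diet lesions. High-fat diet replicate 2 thus lay 4.50-fold above the next array, while high-fat diet replicate 1 was the lowest of the 4. All 4 probe sets of Csf1 gave this order. The weakest probe set had 67.5 and 85.2 in casein diet lesions, against 58.0 and 376.2 in high-fat diet lesions. Only 22 of the 12797 tested genes (0.172%) lay at least 2 log2 units above every other array in high-fat diet replicate 2, and Csf1 was 1 of them, a comparison chosen after its values were seen. The log2 difference was 0.97 (SE 1.03, 95% interval -1.96 to 3.90, limma), or -0.44 when high-fat diet replicate 2 was left out and 2.37 when replicate 1 was.

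**Figure D3:**
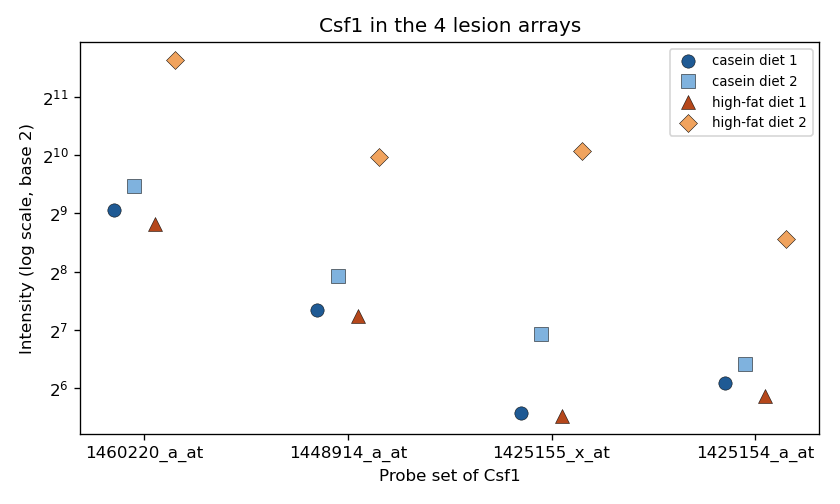
Intensity on a base-2 log axis (vertical) of the 4 probe sets of Csf1 (horizontal) in the 4 lesion arrays. In each probe set high-fat diet replicate 2 is the highest array and high-fat diet replicate 1 the lowest, from 454.1 to 3185 for the brightest.

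Adipocyte markers (4 of 6 listed genes measured) were also highest in high-fat diet replicate 2, with a summed intensity of 771.0, where the other high-fat diet array had 147.6 and the casein diet arrays 269.6 and 233.6. Lep and Cidec had means below the filter. Endometrial epithelium markers were not highest there. The part of these cells in the Csf1 value was not tested. Il34, which encodes the other ligand of CSF1R, was dim, with 15.1 and 17.3 in casein diet lesions, against 13.5 and 11.2 in high-fat diet lesions. Both ligands signal through Csf1r, whose intensities were 3868 and 3821 in casein diet lesions, against 4528 and 3488 in high-fat diet lesions. The diets overlapped for Csf1r, with a log2 difference of 0.05 (SE 0.16, 95% interval -0.41 to 0.51). The array with the most Csf1 had the least Csf1r. Its 3 probe sets gave differences of 0.05, 0.06 and -0.09.

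General macrophage genes were mostly a little higher on the high-fat diet. Of 17, 16 had the higher mean and the median log2 difference was 0.20. Both high-fat diet arrays lay above both casein diet arrays for 6 of the 17 (35.3%, against 17.0% of all genes) and below them for 1 (5.88%, against 18.7%). All 17 passed the filter. The median deviation of the class from the mean of the arrays was 0.30 in high-fat diet replicate 1, and -0.08, -0.09 and -0.03 in casein diet replicates 1 and 2 and high-fat diet replicate 2. Set against casein diet replicate 1 and replicate 2 in turn, high-fat diet replicate 1 was higher for 15 of the 17 genes each time. High-fat diet replicate 2 was higher for 9 of 17 each time. The genes were not all the same in the 2 comparisons. The median difference was 0.04 when high-fat diet replicate 1 was left out and 0.42 when replicate 2 was.

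Of the lineage regulator and signalling adaptors, Spi1 and Tyrobp overlapped between diets. Spi1, for PU.1, had intensities of 145.2 and 138.9 in casein diet lesions, against 193.8 and 136.9 in high-fat diet lesions, so that only high-fat diet replicate 1 stood above the rest. Tyrobp, for the adaptor DAP12, which carries signals from TREM2 and related receptors, had 3583 and 3851 against 3918 and 3777. Its log2 difference was 0.05 (95% interval -0.23 to 0.33). Fcer1g, for the adaptor chain shared by activating antibody receptors and also found in mast cells, had 2396 and 2123 against 3249 and 2520. Its diets did not overlap, with a log2 difference of 0.34 (SE 0.17, 95% interval -0.14 to 0.83). It was 0.16 without high-fat diet replicate 1. Of 8 mast cell markers, Fcer1a, Mcpt4, Tpsb2 and Ms4a2 were below the filter intensity in all arrays, and the other 4 passed it. Of these, Cpa3 and Cma1 were lower in both high-fat diet arrays, Kit was higher in both, and Hdc overlapped. The list summed to 867.2 and 2641 in casein diet lesions, against 1757 and 2127 in high-fat diet lesions. Most of that sum was Hdc, with 485.7 and 2249 against 1371.7 and 1758. The part of mast cells in the Fcer1g value was not tested.

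Among surface receptors with higher values, Ms4a7 and Msr1 had the largest differences of the class. Ms4a7, a tetraspan membrane gene of macrophages, had intensities of 1040.6 and 1171 in casein diet lesions, against 2138 and 1579.8 in high-fat diet lesions. The lowest high-fat diet array stood above the highest casein diet array, with a log2 difference of 0.74 (SE 0.19, 95% interval 0.19 to 1.28, unadjusted p = 0.0203, adjusted p = 0.863, limma). A second, dim probe set gave 0.70. Msr1, the class A scavenger receptor that takes up modified lipoproteins, had 257.0 and 371.2 against 528.1 and 484.5. Its difference was 0.71 (SE 0.22, 95% interval 0.10 to 1.33, unadjusted p = 0.0326, adjusted p = 0.863, limma), or 0.45 without casein diet replicate 1. The other 3 probe sets of Msr1 gave 0.45, 0.34 and 0.47.

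Mertk, the receptor kinase for clearance of apoptotic cells, differed less but more evenly. Its intensities were 440.3 and 459.1 in casein diet lesions, against 568.7 and 540.8 in high-fat diet lesions, with close values within each diet. The log2 difference was 0.30 (SE 0.09, 95% interval 0.03 to 0.57, unadjusted p = 0.0355, adjusted p = 0.863, limma), and it stayed between 0.27 and 0.34 when any 1 array was left out. Fcgr1, the high-affinity IgG receptor, had 469.2 and 303.0 in casein diet lesions, against 525.0 and 446.8 in high-fat diet lesions, so the diets overlapped. Cd14, the co-receptor for bacterial lipopolysaccharide, had 672.5 and 1243.7 against 892.8 and 1054.9. Both high-fat diet values of Cd14 fell between the casein diet values.

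The markers most used to count macrophages in tissue had differences whose intervals included 0. Adgre1, the F4/80 antigen, had intensities of 687.9 and 579.1 in casein diet lesions, against 895.1 and 647.0 in high-fat diet lesions, and the diets overlapped. Cd68, a lysosomal glycoprotein, had 756.2 and 1253 against 1509.9 and 1277. The high-fat diet arrays of Cd68 lay above both casein diet arrays, but replicate 2 only just, and the log2 difference of 0.51 (SE 0.29, 95% interval -0.32 to 1.34) was 0.15 without casein diet replicate 1. For Adgre1 it was 0.27 (SE 0.21, 95% interval -0.33 to 0.87), or 0.04 without high-fat diet replicate 1. Mpeg1, for the pore-forming protein perforin-2, had 3515 and 3853 against 5288 and 4045, a difference of 0.33 (SE 0.17, 95% interval -0.16 to 0.82). Its value was 0.14 without high-fat diet replicate 1.

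Lyz2, for lysozyme, was even across arrays, with 11688 and 12087 in casein diet lesions, against 13482 and 10955 in high-fat diet lesions. Aif1, for the calcium-binding protein IBA1, had 1363.6 and 732.5 against 1340.3 and 983.5. Laptm5, a lysosomal membrane gene of blood-derived cells, had 2503 and 2485 against 3128 and 2479.6. The diets overlapped in all 3, and 4 of 5 probe sets of Laptm5 gave a difference above 0. The probe sets used for Aif1 and Laptm5 are of a kind that can also match related transcripts. The integrin gene Itgam (CD11b) overlapped as well, with 188.6 and 283.9 in casein diet lesions, against 293.9 and 210.5 in high-fat diet lesions.

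Itgax, the CD11c integrin gene shared by dendritic cells and lipid-associated macrophages, was the 1 gene of this class with lower values. Its intensities were 432.1 and 785.2 in casein diet lesions, against 332.8 and 343.6 in high-fat diet lesions. Both high-fat diet arrays were close together and below both casein diet arrays, with a log2 difference of -0.78 (SE 0.33, 95% interval -1.71 to 0.14). Leaving out casein diet replicate 2 gave -0.35, and leaving out replicate 1 gave -1.22. Dendritic cell markers (8 of 9 listed genes measured, none below the filter intensity) summed to 3072 and 3243 in casein diet lesions, against 3346 and 3149 in high-fat diet lesions. Most of that sum was Fscn1, an actin-bundling gene that other cells also express, with 2142 and 2458 against 2654 and 2508. Of the 8, 6 had the lower mean on the high-fat diet. Both high-fat diet arrays lay below both casein diet arrays for 2 (25%, against 18.7% of all genes). They lay above them for 1 (12.5%, against 17.0%), and 5 overlapped. The largest difference was that of Ccr7, the receptor that guides dendritic cells to lymph nodes, with 179.3 and 135.4 against 70.6 and 62.0. Flt3 and Zbtb46 overlapped, with log2 differences of -0.09 and -0.03. The part of dendritic cells in the Itgax value was not tested.

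**Figure D4:**
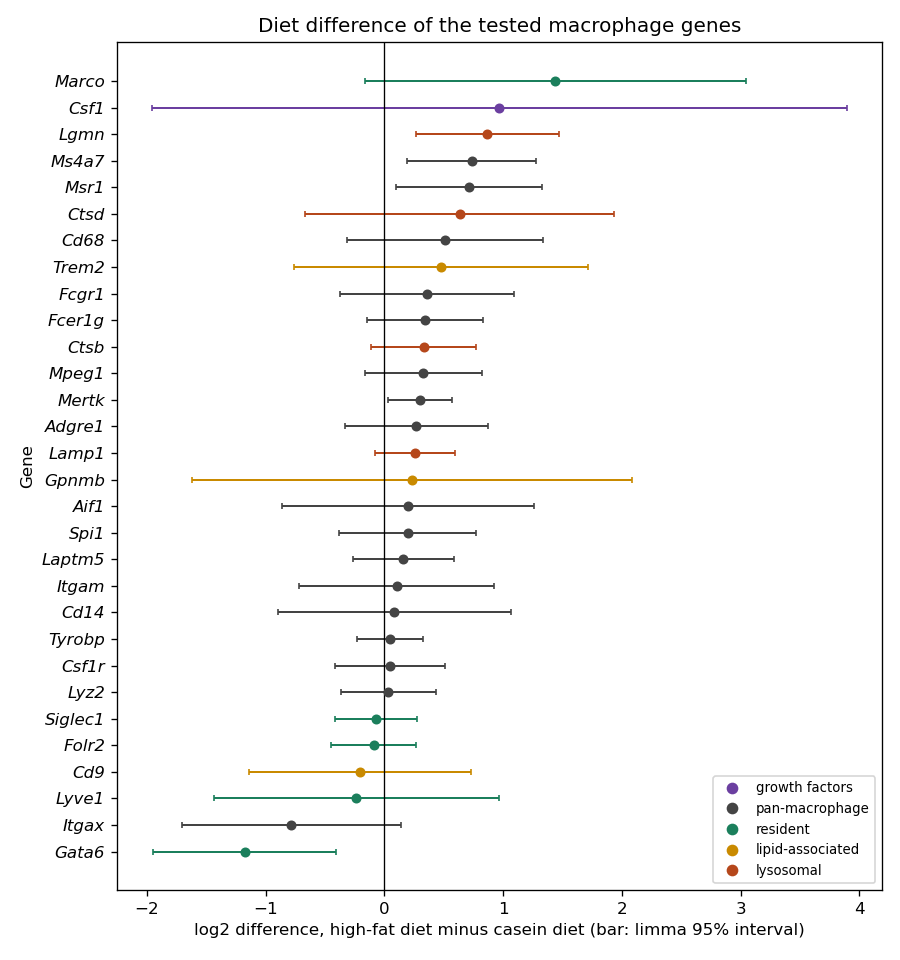
Log2 difference between diets, high-fat diet minus casein diet (horizontal axis), with limma's 95% interval as a bar, for the 30 tested macrophage genes (vertical axis), coloured by class. The interval lies above 0 for Ms4a7, Msr1, Mertk and Lgmn and below 0 for Gata6, and it is wide for Csf1 and Gpnmb.

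Genes of resident macrophages leaned lower on the high-fat diet, apart from Marco. Of 7 genes, 6 had the lower mean, and the median log2 difference was -0.23, or -0.60 with high-fat diet replicate 2 left out and -0.15 with replicate 1 left out. Both high-fat diet arrays lay below both casein diet arrays for 3 of the 7 (42.9%, against 18.7% of all genes), Gata6, Timd4 and Vsig4. They lay above them for 1, Marco (14.3%, against 17.0% of all genes). Timd4 and Vsig4 were below the filter intensity on every array and were not tested. Folr2, Lyve1 and Siglec1 overlapped between diets, and the sign of each turned when some array was left out. Gata6, the regulator of large peritoneal macrophages, had intensities of 293.3 and 186.7 in casein diet lesions, against 114.1 and 93.9 in high-fat diet lesions. Its log2 difference was -1.18 (SE 0.27, 95% interval -1.95 to -0.41, unadjusted p = 0.0138, adjusted p = 0.863, limma), and -0.85 to -1.50 when any 1 array was left out. The other 2 probe sets gave -0.66 and -0.54. GATA6 is made by other cells too, including mesothelium and stomach epithelium.

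Most markers of both tissues were lower as well. Of 6 mesothelium markers, 5 had the lower mean on the high-fat diet, and Wt1 did not, with 245.3 and 310.8 in casein diet lesions, against 301.1 and 307.6 in high-fat diet lesions. Mesothelium markers (6 of 6 measured) summed to 5996 and 1607.7 in casein diet lesions, against 653.2 and 1210.0 in high-fat diet lesions, a sum dominated by Krt19, which other epithelia share. The more restricted mesothelial gene Upk3b had 140.3 and 82.7 against 17.0 and 23.5, and Msln had 135.3 and 50.4 against 31.4 and 21.8. Lrrn4 had 73.6 and 44.6 against 8.76 and 16.3, with a mean below the filter. The gastric sums given above were likewise higher on the casein diet. Their part in the Gata6 value was not tested.

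Genes more restricted to resident peritoneal macrophages were close to background. Timd4, for the receptor TIM4, had intensities of 22.2 and 14.8 in casein diet lesions, against 10.3 and 14.0 in high-fat diet lesions. Vsig4, a complement receptor of resident macrophages, had 13.1 and 18.6 against 10.3 and 10.2. Both genes lay below the filter of 33.9 on every array, so their order between diets rests on dim signal and was not tested. Among other genes of large peritoneal macrophages, Prg4, for lubricin, had 75.3 and 53.6 in casein diet lesions, against 32.5 and 24.6 in high-fat diet lesions. Prg4 is also made by mesothelium.

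Markers of tissue macrophages near vessels and in connective tissue overlapped. Folr2, for a folate receptor, had intensities of 94.4 and 109.4 in casein diet lesions, against 91.5 and 99.7 in high-fat diet lesions, a log2 difference of -0.09 (95% interval -0.45 to 0.27). Lyve1, a hyaluronan receptor shared with lymphatic endothelium, had 279.2 and 193.0 against 138.9 and 280.4. Its 2 highest arrays were thus 1 of each diet, with a log2 difference of -0.23 (SE 0.42, 95% interval -1.44 to 0.97). It was 0.27 without high-fat diet replicate 1. The lymphatic genes Mmrn1 and Reln were also highest in high-fat diet replicate 2, with 197.0 and 155.0 against at most 101.4 and 96.0. Flt4 and Prox1 were highest in that array as well, and Pdpn was not. Lymphatic markers (5 of 6 measured, Prox1 with a mean below the filter) summed to 1055.7 and 1168.6 in casein diet lesions, against 1516 and 1439 in high-fat diet lesions. Most of that sum was Pdpn, with 731.1 and 921.9 against 1209.6 and 920.6, highest in high-fat diet replicate 1. The part of lymphatic cells in the Lyve1 value was not tested. Siglec1, for the sialic-acid receptor CD169, was dim and even, with 42.5 and 47.8 against 45.2 and 40.6.

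Marco, a scavenger receptor of resident and activated macrophages, had the largest difference of all 33 genes. Its intensities were 86.3 and 43.8 in casein diet lesions, against 251.7 and 110.4 in high-fat diet lesions. The diets did not overlap, but the arrays of each diet lay far apart (SD 0.69 and 0.84 on the log2 scale, n = 2 each), and the difference of 1.44 had a wide interval (SE 0.57, 95% interval -0.16 to 3.04). Leaving out high-fat diet replicate 1 gave 0.85, leaving out casein diet replicate 2 gave 0.95, and leaving out high-fat diet replicate 2 gave 2.03. A second, dim probe set gave 0.59.

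To set the residency genes beside macrophage content, each array's median deviation of the 17 general macrophage genes was subtracted from their log2 values, as a description without a test. Because the subtraction lowers every gene's difference by the same amount, the 6 of 7 resident genes already below 0 could only stay there. Their values on this scale were -1.40 for Gata6, -0.81 for Timd4, -0.83 for Vsig4, -0.45 for Lyve1, -0.31 for Folr2 and -0.29 for Siglec1. Marco was at 1.22. Both high-fat diet arrays lay below both casein diet arrays for 4 of the 7, where 42.5% of all genes did so on this scale, and above for 1, where 2.17% did. The lower order on this scale was therefore common among all genes.

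Genes of lipid-associated macrophages overlapped between diets in all 3 measured, by their brightest probe sets. Gpnmb, a glycoprotein of lipid-laden macrophages, had intensities of 1437 and 4955 in casein diet lesions, against 3131 and 3150.1 in high-fat diet lesions. The casein diet arrays held both the lowest and the highest value, while the high-fat diet arrays were nearly equal, and the log2 difference was 0.23 (SE 0.65, 95% interval -1.62 to 2.09). A second, much dimmer probe set of Gpnmb gave 1.13 without overlap, with 18.2 and 42.3 against 68.4 and 54.4, and the mean of both probe sets gave 0.68. Trem2, the lipid-sensing receptor that signals through DAP12, had 172.3 and 373.8 against 404.1 and 309.0, a difference of 0.48 (SE 0.44, 95% interval -0.76 to 1.72). The probe set used for Trem2 is, like that of Aif1, of a kind that can also match related transcripts. The other probe set of Trem2 was dim and gave -0.05. Cd9, a tetraspanin that many cell types make, had 1888 and 2823 against 1597 and 2519, a difference of -0.20 (SE 0.33, 95% interval -1.14 to 0.73). Casein diet replicate 1, the array with the most gastric signal, was the lowest for Trem2 and Gpnmb, and without it the differences were -0.08 and -0.66. The part of gastric tissue in the values of these genes was not tested. Osteoclast markers, some of which lipid-laden macrophages share (6 of 6 measured, Calcr and Ocstamp below the filter), summed to 1349.6 and 2181 in casein diet lesions, against 3058 and 1765 in high-fat diet lesions, with their part not tested.

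The 4 lysosomal genes all had the higher mean on the high-fat diet, with a median log2 difference of 0.48. Lgmn, for the protease legumain, had intensities of 708.0 and 1001 in casein diet lesions, against 1636 and 1439.5 in high-fat diet lesions. The diets did not overlap, with a difference of 0.87 (SE 0.21, 95% interval 0.26 to 1.47, unadjusted p = 0.0168, adjusted p = 0.863, limma), and 0.62 to 1.12 when any 1 array was left out. Ctsb, for cathepsin B, had 6137 and 7479 against 9168 and 7925. All 5 probe sets of Ctsb gave differences above 0, from 0.33 for the brightest to 0.62, and the former was 0.19 without casein diet replicate 1. Lamp1, for an abundant lysosomal membrane protein, had 3854 and 4367 against 5108 and 4687, a small difference of 0.25 (SE 0.12, 95% interval -0.08 to 0.59), or 0.16 without casein diet replicate 1.

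Ctsd, for cathepsin D, differed by the low value of a single array. Its intensities were 2499 and 5850.1 in casein diet lesions, against 6353 and 5557 in high-fat diet lesions, so that casein diet replicate 2 lay between the high-fat diet arrays. The log2 difference was 0.64 (SE 0.46, 95% interval -0.67 to 1.94) and 0.02 without casein diet replicate 1. The median of the 4 genes was 0.18 without that array, and 0.80 when casein diet replicate 2 was left out. The 3 genes with CACGTG in the printed promoters, Lgmn, Lamp1 and Ctsd, had differences of 0.87, 0.25 and 0.64, of which only the first and second kept the diets apart. A link between the motif and these differences was not tested.

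Other lysosomal genes gave a like picture on a wider list. Of 22 measured of 26 listed, 21 had the higher mean on the high-fat diet, with a median of 0.22. Both high-fat diet arrays lay above both casein diet arrays for 12 (54.5%, against 17.0% of all genes), and below for 0. Limma called 0 of them after adjustment, and 1, Npc1, had an unadjusted p under 0.05. Npc1, the cholesterol exporter of the lysosome, had intensities of 197.2 and 226.4 in casein diet lesions, against 317.2 and 269.7 in high-fat diet lesions, a log2 difference of 0.47 (SE 0.14). Hexa, for a hexosaminidase subunit, had 2452 and 2979.9 against 4214 and 3302, a difference of 0.46, or 0.29 without high-fat diet replicate 1. Gaa and Tpp1, for acid glucosidase and a lysosomal peptidase, differed by 0.29 and 0.33, the latter by 0.20 without casein diet replicate 1.

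Further genes of lipid-associated macrophages mostly had higher means. Of 19 measured of 21 listed, 18 had the higher mean on the high-fat diet, with a median of 0.46, and the diets did not overlap for 10 (52.6%, against 17.0% of all genes), all higher. This list shares genes with the lysosomal list, and limma called 0 of it. The median deviation of the list was -0.49 in casein diet replicate 1, the array with the most gastric signal, -0.03 in casein diet replicate 2, and 0.29 and 0.09 in the high-fat diet arrays. The part of gastric tissue in these medians was not tested. The list's smallest p belonged to the cholesterol exporter gene Abcg1, with 548.3 and 558.4 in casein diet lesions, against 1109 and 1037 in high-fat diet lesions. Apoe, for the lipoprotein that leaves macrophages with cholesterol, had 4448 and 4681 against 8638 and 6585. Fabp4, for a fatty acid-binding protein that adipocytes also make, had 489.6 and 696.9 against 1292 and 2026, and was highest in the array with the most adipocyte signal. The part of adipocytes in the Fabp4 value was not tested. Abca1, the other cholesterol exporter gene, had 1587 and 2645 against 4443 and 4287, and its difference was 1.09 (SE 0.28), or 0.72 without casein diet replicate 1.

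Other genes of resident and perivascular macrophages went both ways. Of 16 measured, 5 lay higher in both high-fat diet arrays (31.2%, against 17.0% of all genes) and 6 lower (37.5%, against 18.7%). The median was -0.10, and limma called 0. Pf4, a chemokine gene of platelets and resident macrophages, had intensities of 291.2 and 347.0 in casein diet lesions, against 1197.9 and 838.9 in high-fat diet lesions. F13a1, for a coagulation factor subunit of macrophages and monocytes, had 454.6 and 333.4 against 824.4 and 672.4. Cd163, the haemoglobin scavenger receptor gene, had 47.2 and 52.5 against 24.0 and 23.8, so both high-fat diet values lay below the filter intensity. Clec10a, a lectin gene of macrophages and dendritic cells, had 578.4 and 349.0 against 229.4 and 239.8, a log2 difference of -0.94 (SE 0.28), or -0.57 without casein diet replicate 1.

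Other large peritoneal macrophage genes were as divided. Of 15 measured of 16 listed, 5 lay higher in both high-fat diet arrays (33.3%, against 17.0% of all genes) and 4 lower (26.7%, against 18.7%). The median was 0.16, and limma called 0. Cd5l, for a secreted macrophage protein, had 112.4 and 87.9 in casein diet lesions, against 608.1 and 795.0 in high-fat diet lesions. Saa3, an acute-phase gene that many cells induce, had 1109 and 1060.1 against 7031 and 5061. In the other direction, Cxcl13, a B cell-attracting chemokine gene, had 425.2 and 481.4 against 254.8 and 278.1. The list thus held large differences in Cd5l and Saa3, both higher, beside lower values of Cxcl13 and Prg4. Timd4 and Vsig4, which are in the resident class and not on this list, lay below the filter on both diets.

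Receptors for dying cells and their bridging proteins were mostly higher. Of 17 measured, 15 had the higher mean on the high-fat diet, with a median of 0.23 and 0 called by limma. The diets did not overlap for 4, all higher, a share of 23.5% near the 17.0% of all genes. Stab1, a scavenger receptor of macrophages and endothelium, had 268.4 and 283.5 in casein diet lesions, against 515.2 and 408.7 in high-fat diet lesions, a log2 difference of 0.73 (SE 0.15). Itgb5, an integrin subunit that recognises bridging proteins, had 866.3 and 1024.6 against 1669 and 1383.5. Stab2 and Scarb1 differed by 0.34 and 0.52, or by 0.20 and 0.15 without high-fat diet replicate 2.

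Receptors and kinases that work with the DAP12 and Fc receptor adaptors were less uniform. Of 16 measured, 11 had the higher mean, with a median of 0.16 and 0 called by limma. Without overlap, 4 were higher (25.0%, against 17.0% of all genes) and 1 lower (6.25%, against 18.7%). The lower gene was Clec7a, for the fungal glucan receptor dectin-1, with 2912 and 3708 in casein diet lesions, against 2168 and 2332 in high-fat diet lesions. Clec4e, a receptor gene of activated macrophages and neutrophils, had 338.5 and 391.5 against 1172 and 433.2, so the single high array was again high-fat diet replicate 1. Without that array its difference of 0.97 was 0.25. Sirpb1a and Btk, a DAP12 partner and a signalling kinase, differed by 0.46 and 0.29, or by 0.23 and 0.18 without it.

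Transcription factors of macrophages were evenly split. Of 15 measured of 16 listed, 8 had the higher mean, with a median of 0.05 and 0 called by limma. Without overlap, 5 were higher (33.3%, against 17.0% of all genes) and 3 of 15 lower (against 18.7%). Nr1h3, for the oxysterol receptor LXR alpha, had 78.0 and 61.0 in casein diet lesions, against 101.4 and 100.9 in high-fat diet lesions, a log2 difference of 0.55 (SE 0.16). Mitf, a relative of TFEB that also binds CACGTG, had 502.1 and 625.1 against 773.0 and 753.1, a difference of 0.45 (SE 0.15), or 0.29 without casein diet replicate 1. The part of Mitf in the lysosomal values was not tested. Id3, a regulator of resident macrophages and lymphocytes, had 824.9 and 846.1 against 653.2 and 644.1. Cebpa, an early myeloid factor, differed by 0.29 (SE 0.12).

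Markers of recruited monocytes went both ways. Of 7 measured of 9 listed, 4 had the higher and 3 the lower mean on the high-fat diet, with a median of 0.24. F13a1, given above, is also on this list and had its largest difference, 0.94, and Vcan, a matrix proteoglycan gene that stromal cells also express, differed by 0.57 with overlapping diets. Ccr2, the chemokine receptor of recruited monocytes, had intensities of 1012.6 and 790.9 in casein diet lesions, against 874.6 and 725.1 in high-fat diet lesions, and the diets overlapped. Cx3cr1, the fractalkine receptor gene of monocytes and some resident macrophages, had 386.4 and 442.5 against 536.6 and 444.0. Plac8, a gene of monocytes and other leukocytes, had 5889 and 4985 against 4739 and 4208.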

How the data were processed

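The deposited values are probe set intensities on a linear scale, 45101 per array, which the authors had processed before deposit. GCOS and RMA are named, per the submitters' processing notes, with no version, order or role. The files hold no detection calls and no scan dates, so neither dim spots nor batches could be judged from them. The median intensity was 55.1 to 56.5 per array. Arrays brought to like medians cannot show a change common to most genes.

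Log2 was taken with no pseudocount, and means were taken on that scale. Apart from 64 control probe sets, 34945 probe sets had 1 gene symbol, 932 several and 9160 none, and only the first were used. The brightest probe set stood for each of 18193 genes, and those reaching the 40th percentile of probe sets (33.9), 12797 genes, were tested. Diets, read from the titles, were compared with lmFit and eBayes of limma 3.58.1 under R 4.3.3 (two-sided, 3.80 degrees of freedom, Benjamini-Hochberg over the tested genes), which was first tested on simulated data. All 33 measured genes are named, besides markers of other cells and up to 4 further genes of each list by smallest p. The replicate numbers did not pair the arrays (correlation of deviations -0.02). The genes, lists and motifs were chosen with earlier results of these data known. Figures were drawn with matplotlib 3.10.9.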

Additional observations from a re-analysis of the deposited data

How the results depend on the processing

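Only 4 arrays were available, which limits every interval, and intensities near background have no call behind them. With the replicate number as a block, 0 of 12797 genes passed (smallest adjusted p = 0.911), and no call changed. The count also remained 0 under quantile normalisation, median centring, the mean of probe sets, a pseudocount of 16, no filter, a filter at the 60th percentile and a robust intensity trend. When any 1 array was left out it was 0 to 17, with 17 without casein diet replicate 2, none of them among the macrophage genes or the 28 further genes named from the lists. Where an array is left out, the lone array of its diet is assumed to vary like the others.

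Medians of the log2 differences ranged, with any 1 array left out, from 0.057 to 0.33 for all 33 genes, 0.036 to 0.42 for general macrophage genes, -0.60 to -0.15 for resident genes, -0.49 to 1.04 for lipid-associated genes and 0.18 to 0.80 for lysosomal genes. Under the other settings each moved by less than the spread between replicates. The count of genes with the higher mean, 24, was 20 to 26, an alternative chosen after seeing the data.

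In 15 of the 33 macrophage genes the sign turned when some array was left out. Their ranges were -0.25 to 0.65 for Aif1, -0.36 to 0.53 for Cd14, -0.53 to 0.13 for Cd9, -0.44 to 2.37 for Csf1, -0.14 to 0.24 for Csf1r, -0.20 to 0.017 for Folr2, -0.66 to 1.13 for Gpnmb, -0.19 to 0.40 for Itgam, -0.0085 to 0.33 for Laptm5, -0.74 to 0.27 for Lyve1, -0.12 to 0.18 for Lyz2, -0.16 to 0.011 for Siglec1, -0.053 to 0.45 for Spi1, -0.081 to 1.04 for Trem2 and -0.0017 to 0.10 for Tyrobp. Among the other settings the sign of 1 gene turned, that of Siglec1, to 0.022 with the mean of probe sets. The cause was not tested.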
